A study of Mus musculus with 10 samples.

Results

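Trp53 and 9 genes that its protein is known to induce, Cdkn1a, Mdm2, Ccng1, Bax, Bbc3, Sesn1, Sesn2, Trp53inp1 and Zmat3, were examined in the infundibulum, the part of the mouse oviduct that opens toward the ovary. The 10 genes were chosen by symbol from the 54256 genes of the deposited table, without use of their measured values, and each symbol had 1 row. The mice were of the C57BL/6 strain and 8 to 10 weeks old. One group received recombinant murine prolactin (rmPRL) for 7 days, and the other, labelled WT in its titles, received saline. Each group held 5 libraries of polyadenylated RNA, and a library was made from the 4 infundibula of a pool of 2 mice, so replicates were different pools. The sources used here give neither dose nor route of rmPRL. The labels put rmPRL libraries 1, 3, 4 and 5 and saline libraries 1 to 5 at proestrus, and rmPRL library 2 at diestrus.

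The protein p53, encoded by Trp53, is a transcription factor that DNA damage and other stresses stabilise, mostly by releasing it from Mdm2, the ubiquitin ligase that marks it for degradation. It acts mainly through its protein level, so the amount of Trp53 mRNA alone does not measure its activity. Its targets stop the cell cycle, feed back on p53, promote cell death or limit growth, and their mRNA levels are a common readout of p53 activity. Prolactin signals through its receptor to Jak2 and Stat5, and p53 is not a member of that core cascade.

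p53 binds pairs of a decamer known as the p53 response element, and the promoter sequences are shown because the 9 targets are defined by this regulation. RefSeq windows on GRCm38.p6, from 250 bases before to 50 after a start site, were found for 8 of the 10 genes, in 12 windows. Zmat3 and Trp53inp1 had none in the table used. The decamer was searched on both strands, whose readings coincide because it is its own reverse complement. At least 1 decamer was found in 6 of the 12 windows, belonging to 6 genes, against 8.36% of 32841 windows of the same length. The 6 genes are Trp53 and 5 of its targets, and the share is given as a description. A pair of decamers at most 13 bases apart was in 1 of the 12 windows, the upstream window of Cdkn1a, against 0.0731% of all windows. The letters CATG, which stand at the centre of many p53 sites, were in 3 of the 12 windows and in 61.1% of all windows.

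The windows of 3 genes are printed 5′ to 3′ on the strand of the gene, with decamer matches in capitals: the upstream window of Cdkn1a at chr17:29090729-29091028 (plus strand), which holds the pair, that of Bax at chr7:45466849-45467148 (minus strand), the target with the smallest p between the groups, and that of Trp53 itself at chr11:69580109-69580408 (plus strand).
Cdkn1a: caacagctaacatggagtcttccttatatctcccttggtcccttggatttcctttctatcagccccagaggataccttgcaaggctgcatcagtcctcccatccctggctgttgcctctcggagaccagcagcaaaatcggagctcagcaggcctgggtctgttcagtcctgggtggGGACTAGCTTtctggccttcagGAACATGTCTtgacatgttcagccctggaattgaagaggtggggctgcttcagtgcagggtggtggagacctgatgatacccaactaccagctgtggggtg
Bax: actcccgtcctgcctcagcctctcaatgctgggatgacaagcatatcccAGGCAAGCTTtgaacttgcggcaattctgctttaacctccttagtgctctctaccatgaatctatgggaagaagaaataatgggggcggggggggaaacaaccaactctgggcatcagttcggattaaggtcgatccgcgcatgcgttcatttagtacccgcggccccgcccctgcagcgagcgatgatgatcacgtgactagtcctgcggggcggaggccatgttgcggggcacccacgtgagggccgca
Trp53: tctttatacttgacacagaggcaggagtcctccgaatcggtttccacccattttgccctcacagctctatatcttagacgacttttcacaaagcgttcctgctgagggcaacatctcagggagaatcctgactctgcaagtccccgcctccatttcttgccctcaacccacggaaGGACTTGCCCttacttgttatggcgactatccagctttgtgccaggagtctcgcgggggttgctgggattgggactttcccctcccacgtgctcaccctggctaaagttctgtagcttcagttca
The 2 decamers of Cdkn1a begin 73 and 51 bases before the upstream start site of the gene. The second of them, GAACATGTCT, lies 2841 bases before the downstream start site at position 29093769, and the 10 bases that follow it match the decamer at 9 of 10 positions. The match of Bax, AGGCAAGCTT, begins 201 bases before the start site, and that of Trp53, GGACTTGCCC, begins 75 bases before it. Single decamers were also found for Mdm2 (GAACTTGCCT, 186 bases before the start), Ccng1 (GGGCAAGCCT, 185 bases before) and the downstream start of Sesn1 (AAGCTTGTTT, 173 bases before). Those matches are letters in a sequence, and binding of p53 was not measured.

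The comparison of rmPRL with saline asked whether 7 days of prolactin changed the mRNA of Trp53 and its targets. All 10 genes passed the filter of at least 1 TPM in at least 5 libraries, and 0 of 10 passed an adjusted p of 0.05 (limma on log2(TPM + 1), Benjamini-Hochberg over 16131 genes, two-sided). TPM values adjust reads for transcript length and library total. Over all tested genes 4 (0.0248%) passed, with 3 (0.0186%) higher and 1 (0.00620%) lower in rmPRL. At an unadjusted p under 0.05 there was 1 of 10 members, Bax, which was higher, against 16.0% of all tested genes, 6.14% higher and 9.91% lower. The groups overlapped for all 10 members, whereas 3.07% of all tested genes had groups that did not overlap, 1.49% higher and 1.57% lower. Fitted means of Trp53, Cdkn1a, Bax and Zmat3 were higher and those of the other 6 members lower in rmPRL, against 43.5% of all tested genes with a higher mean. The median log2 difference was -0.01 over the 10 members and -0.03 over all tested genes. Mdm2 and Sesn2 lay so close to 0 that other scalings changed their sign, which gave 6 higher and 4 lower with median-of-ratios scaling and 5 of each with quantile normalization. Of the tested genes at an unadjusted p under 0.05, 61.7% were lower as deposited and 47.1% were lower after median-of-ratios scaling.

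**Figure D1:**
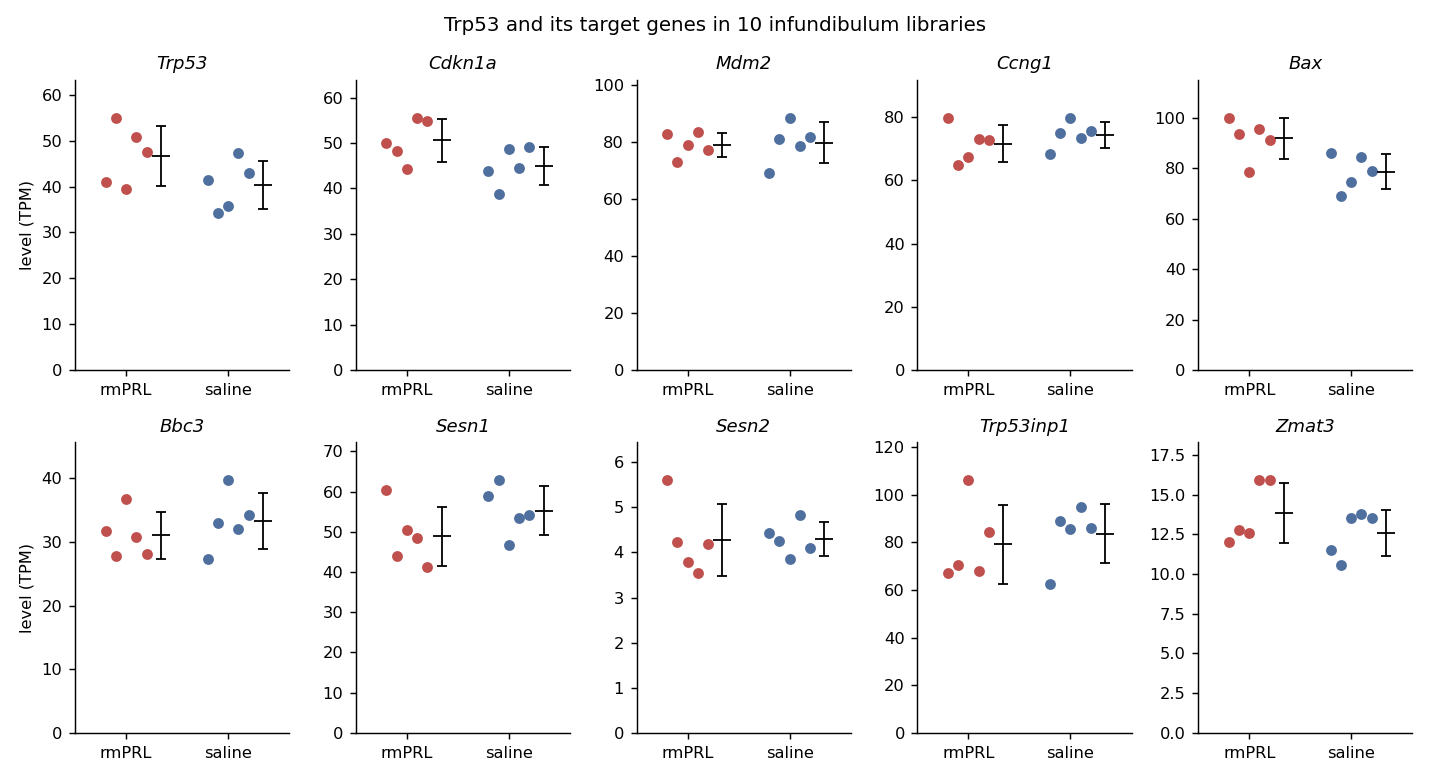
Levels in TPM (vertical axes, starting at 0) of the 10 genes in each library, with rmPRL in red on the left and saline in blue on the right, libraries 1 to 5 in order, and the mean with its SD in black (n = 5 each). The groups overlap in every panel, and 4 of 5 rmPRL libraries exceed every saline library for Bax.

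The files gave no read counts, so depth per library and counting error are unknown, beyond the stated 80 M reads per sample. The libraries summed to between 999445 and 999607 TPM and held 15975 to 16615 genes at 1 TPM or more. Correlations between libraries over tested genes lay between 0.96136 and 0.98807. The tissue carried epithelial markers. The list for secretory epithelium held Ovgp1, Pax8, Krt7 and the more general epithelial genes Krt8, Krt18, Epcam and Cdh1. These 7 genes summed to 6290 to 10775 TPM in rmPRL and 9095 to 12089 TPM in saline. The 9 multiciliated genes summed to 1796 to 2128 TPM in rmPRL and 1601 to 2502 TPM in saline. Ovarian RNA was high in a pair of libraries, with 8 luteal and theca genes at 684 TPM in rmPRL 2 and 531 TPM in saline 4, against 45.4 to 74.6 TPM in the other rmPRL and 50.2 to 128 TPM in the other saline libraries. In bulk tissue, a change in the share of a cell type and a change in RNA per cell cannot be told apart.

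Trp53 (ENSMUSG00000059552.13, GRCm38 chromosome 11, 69580359 to 69591873, plus strand) was at 40.9, 55.0, 39.4, 50.7 and 47.5 TPM in rmPRL libraries 1 to 5. In saline 1 to 5 it was at 41.4, 34.3, 35.8, 47.2 and 42.9 TPM. The rmPRL libraries 2, 4 and 5 exceeded every saline library, and rmPRL 1 and 3 lay inside the saline range. The mean was 46.7 ± 6.56 TPM in rmPRL and 40.3 ± 5.30 TPM in saline (SD, n = 5 each). The fitted log2 difference was 0.21 (SE 0.110, 95% interval from -0.04 to 0.45, limma with Benjamini-Hochberg adjusted p = 0.368). Among proestrus libraries alone, without rmPRL 2, the difference was 0.15 (limma adjusted p = 0.573). The highest library of each group, rmPRL 2 and saline 4, was also the one with high luteal and theca markers, and without both the difference was 0.20 (limma adjusted p = 0.423). The rmPRL libraries with high Trp53, 2, 4 and 5, also had the lowest sums of the secretory epithelium list, at 6290, 6752 and 7021 TPM. The sums were 10425 and 10775 TPM in rmPRL 1 and 3. Most of each sum was Ovgp1, at 8589, 4923, 9034, 5198 and 5432 TPM in rmPRL 1 to 5. In saline 1 to 5 the sums were 11026, 12089, 9095, 10206 and 9711 TPM. Saline 2, the lowest for Trp53, had the highest sum, but saline 3, the next lowest for Trp53, had the lowest sum in saline. The saline sums thus did not follow the reverse order of Trp53 throughout. The part of these sums in the Trp53 values was not tested. No annotated gene overlaps Trp53, and its processed pseudogene Trp53-ps was listed at 0 to 0.0706 TPM.

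Cdkn1a (ENSMUSG00000023067.14, chromosome 17, 29090976 to 29100727, plus strand) encodes p21, the inhibitor of cyclin-dependent kinases through which p53 halts the cell cycle. Its levels were 50.1, 48.3, 44.3, 55.6 and 54.8 TPM in rmPRL 1 to 5, against 43.8, 38.7, 48.6, 44.6 and 49.2 TPM in saline 1 to 5. As for Trp53, 3 rmPRL libraries exceeded every saline library, here 1, 4 and 5, and saline 2 was the lowest of all. The log2 difference was 0.17 (SE 0.081, 95% interval from -0.01 to 0.35, limma adjusted p = 0.331), with means of 50.6 ± 4.68 TPM in rmPRL and 45.0 ± 4.25 TPM in saline (SD, n = 5 each). An annotated gene on the opposite strand, AC167363.2, covers 7.68% of the exonic bases of Cdkn1a and averaged 0.0565 TPM.

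Mdm2 and Ccng1 act back on p53 itself. Mdm2 (ENSMUSG00000020184.15, chromosome 10, 117688875 to 117710758, minus strand), the ubiquitin ligase that is both target and inhibitor of p53, was at 82.6, 73.1, 79.0, 83.4 and 77.2 TPM in rmPRL 1 to 5, against 69.0, 81.0, 88.5, 78.7 and 81.7 TPM in saline 1 to 5. All rmPRL values of Mdm2 lay inside the saline range, and its log2 difference of -0.01 had a 95% interval from -0.16 to 0.14 (limma adjusted p = 0.954). Ccng1 (ENSMUSG00000020326.7, chromosome 11, 40748552 to 40755311, minus strand), cyclin G1, which recruits the phosphatase PP2A to Mdm2, was at 79.8, 64.9, 67.5, 73.1 and 72.6 TPM in rmPRL and at 68.3, 74.9, 79.7, 73.4 and 75.7 TPM in saline. Its log2 difference was -0.06 (95% interval from -0.20 to 0.08, limma adjusted p = 0.670). The level of Mdm2 divided by that of Trp53 was 1.72 ± 0.290 in rmPRL and 2.01 ± 0.381 in saline (SD, n = 5 each). On the log2 scale this ratio differed by -0.22 between the groups, which did not pass (p = 0.246 by a two-sided exact permutation test, and 0.246 adjusted over 3 ratios).

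Bax and Bbc3 are the members that promote cell death. Bax (ENSMUSG00000003873.11, chromosome 7, 45461697 to 45466898, minus strand), which forms pores in the outer mitochondrial membrane, was at 100.0, 93.6, 78.5, 95.4 and 91.2 TPM in rmPRL 1 to 5, against 86.1, 68.9, 74.7, 84.5 and 79.0 TPM in saline 1 to 5. The rmPRL libraries 1, 2, 4 and 5 exceeded every saline library, and rmPRL 3 lay inside the saline range. The mean was 91.7 ± 8.05 TPM in rmPRL and 78.6 ± 7.09 TPM in saline (SD, n = 5 each). The log2 difference of 0.22 was the largest among the members (SE 0.079, 95% interval from 0.05 to 0.39) and did not pass over all genes (limma adjusted p = 0.240, rank 1171 of 16131 by p). The two-sided exact permutation test gave an unadjusted p = 0.0397 for Bax. Its difference was 0.21 among proestrus libraries (limma adjusted p = 0.370) and 0.25 with median-of-ratios scaling (limma adjusted p = 0.227). An overlapping annotated gene on the same strand, Gm45808, covers 12.2% of the exonic bases of Bax and averaged 0.0576 TPM.

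Bbc3 (ENSMUSG00000002083.13, chromosome 7, 16308393 to 16318205, plus strand), also called Puma, neutralises the survival proteins of the BCL2 family. Its levels were 31.7, 27.8, 36.8, 30.8 and 28.1 TPM in rmPRL 1 to 5, against 27.4, 33.0, 39.7, 32.0 and 34.3 TPM in saline 1 to 5. All rmPRL values lay inside the saline range, with a log2 difference of -0.09 (95% interval from -0.32 to 0.13, limma adjusted p = 0.648). Bax and Bbc3 thus differed in sign. The ratio of their levels was 3.00 ± 0.495 in rmPRL and 2.41 ± 0.496 in saline (SD, n = 5 each), and its log2 value differed by 0.32 (p = 0.103 by a two-sided exact permutation test, and 0.246 adjusted over 3 ratios).

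**Figure D2:**
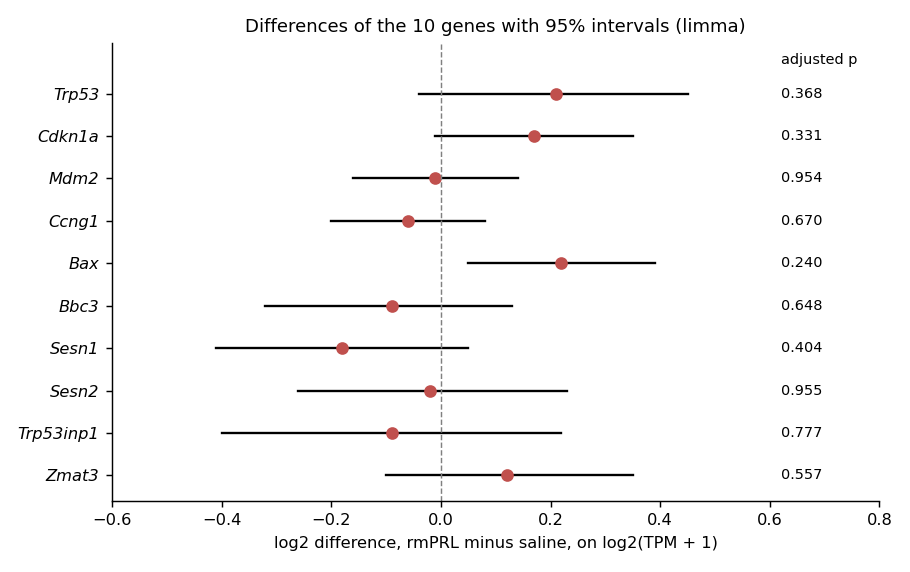
Log2 differences, rmPRL minus saline, on the log2(TPM + 1) scale for the 10 genes (points) with unadjusted 95% intervals (lines) and limma adjusted p on the right. The interval of Bax, from 0.05 to 0.39, is the one that leaves out 0, and no adjusted p is below 0.240.

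The sestrins Sesn1 and Sesn2 are stress-induced proteins that restrain the growth kinase complex mTORC1 by binding its regulator GATOR2. Sesn1 (ENSMUSG00000038332.13, chromosome 10, 41809935 to 41908424, plus strand) was at 60.3, 43.9, 50.4, 48.4 and 41.2 TPM in rmPRL 1 to 5, against 59.0, 62.8, 46.8, 53.5 and 54.1 TPM in saline 1 to 5. Its rmPRL libraries 2 and 5 lay below all saline libraries and the other 3 inside their range. The log2 difference of -0.18 was the lowest among the members (SE 0.105, 95% interval from -0.41 to 0.05, limma adjusted p = 0.404). Sesn2 (ENSMUSG00000028893.8, chromosome 4, 132492032 to 132510501, minus strand) was the lowest member by level, at 5.60, 4.23, 3.80, 3.54 and 4.18 TPM in rmPRL and 4.43, 4.25, 3.85, 4.84 and 4.11 TPM in saline. Its rmPRL libraries spread around the saline range on both sides, and the log2 difference was -0.02 (95% interval from -0.26 to 0.23, limma adjusted p = 0.955). Sesn1 stood at 11.6 ± 1.76 times the level of Sesn2 in rmPRL and 12.9 ± 1.39 times in saline (SD, n = 5 each; p = 0.230 by a two-sided exact permutation test of the log2 ratio, and 0.246 adjusted over 3 ratios).

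Trp53inp1 and Zmat3 are further p53-induced genes. Trp53inp1 (ENSMUSG00000028211.11, chromosome 4, 11156431 to 11174379, plus strand), a stress protein that promotes p53 activity and autophagy, was at 67.1, 70.5, 106, 67.8 and 84.5 TPM in rmPRL 1 to 5, against 62.6, 88.9, 85.6, 94.9 and 85.9 TPM in saline 1 to 5. It varied the most of the members in rmPRL, with a coefficient of variation of 20.8% there and 14.7% in saline. Its extremes were rmPRL 3 at the top and saline 1 at the bottom, and the log2 difference was -0.09 (95% interval from -0.40 to 0.22, limma adjusted p = 0.777). Zmat3 (ENSMUSG00000027663.12, chromosome 3, 32334792 to 32366014, minus strand), a zinc finger protein that binds RNA, was at 12.0, 12.8, 12.6, 15.9 and 15.9 TPM in rmPRL and at 11.5, 10.6, 13.5, 13.8 and 13.5 TPM in saline. Its rmPRL libraries 4 and 5 lay above all others, with a log2 difference of 0.12 (95% interval from -0.10 to 0.35, limma adjusted p = 0.557).

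By mean TPM in rmPRL, the members ranked Bax, Trp53inp1, Mdm2, Ccng1, Cdkn1a, Sesn1, Trp53, Bbc3, Zmat3 and Sesn2. In saline the order was Trp53inp1, Mdm2, Bax, Ccng1, Sesn1, Cdkn1a, Trp53, Bbc3, Zmat3 and Sesn2. The ranges of neighbours overlapped within the first 4, from Bax at 91.7 to Ccng1 at 71.6 TPM in rmPRL, and within the next 3, from Cdkn1a at 50.6 to Trp53 at 46.7 TPM. Bbc3, Zmat3 and Sesn2, at means of 31.0, 13.8 and 4.27 TPM in rmPRL, were each separate from their neighbours there, while in saline the ranges of Trp53 and Bbc3 overlapped. The coefficient of variation between libraries ran from 5.28% for Mdm2 to 20.8% for Trp53inp1 in rmPRL and from 5.55% for Ccng1 to 14.7% for Trp53inp1 in saline.

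No library was high or low across the members. In rmPRL, library 3 was the lowest for Trp53, Cdkn1a and Bax and the highest for Bbc3 and Trp53inp1, while library 1 was the highest for Ccng1, Bax, Sesn1 and Sesn2. In saline, library 2 was the lowest for Trp53, Cdkn1a, Bax and Zmat3 and the highest for Sesn1, and library 4 was the highest for Trp53, Sesn2, Trp53inp1 and Zmat3.

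**Figure D3:**
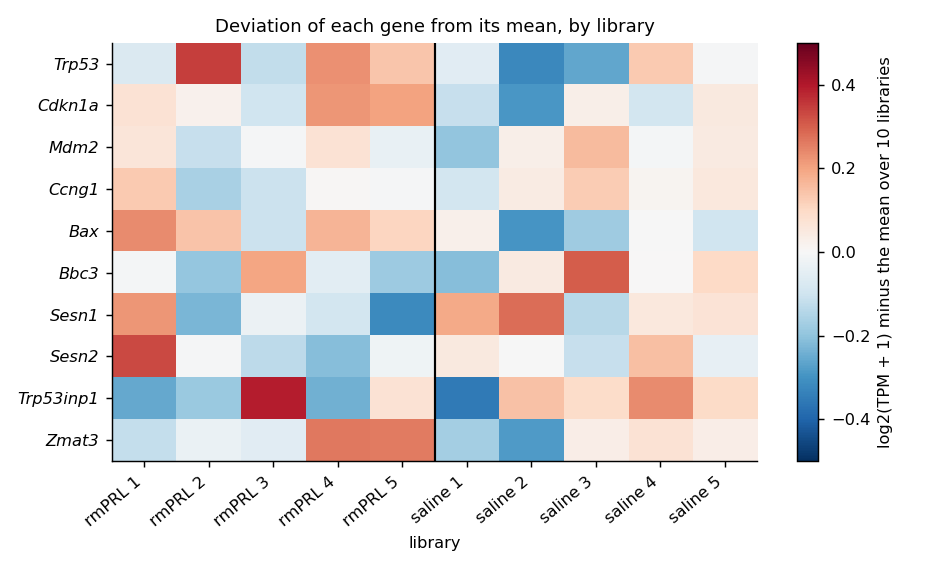
Deviation of each gene in each library from its mean over the 10 libraries, in log2(TPM + 1), red for higher and blue for lower, with rmPRL libraries left of the line and saline libraries right of it. Saline 2 is low for Trp53, Cdkn1a, Bax and Zmat3 and high for Sesn1, and rmPRL 3 is high for Trp53inp1 and Bbc3.

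Whether a target's level followed that of Trp53 mRNA between libraries was asked over all 10 libraries on the log2(TPM + 1) scale, as 9 relations. None passed after adjustment over the 9 (permutation test with 100000 resamples, two-sided), on the values as deposited. Spearman's rho passed for Bax and Bbc3 with median-of-ratios scaling (0.78 and -0.79, permutation p = 0.0103 and 0.00879, adjusted 0.0464 each) and with quantile normalization (0.79 and -0.84, permutation p = 0.00928 and 0.00397, adjusted 0.0418 and 0.0357). Neither rho passed with rescaling that leaves out mitochondrial genes and the 50 most abundant ones (0.66 and -0.66, permutation p = 0.0439 and 0.0452, adjusted 0.150 each). Pearson r of Bax and Bbc3 did not pass under any of these 3 scalings (permutation test, adjusted p from 0.0547 to 0.125). On the values as deposited Bax was the closest, with Pearson r = 0.74 (permutation p = 0.0149, adjusted 0.134) and Spearman rho = 0.70 (permutation p = 0.0302, adjusted 0.196). Zmat3 had r = 0.60 (permutation p = 0.0641, adjusted 0.157) and rho = 0.61 (permutation p = 0.0654, adjusted 0.196). Cdkn1a had r = 0.59 (permutation p = 0.0726, adjusted 0.157) and rho = 0.53 (permutation p = 0.125, adjusted 0.225). Bbc3 ran the other way, with r = -0.65 (permutation p = 0.0453, adjusted 0.157) and rho = -0.65 (permutation p = 0.0503, adjusted 0.196), and Sesn1 had r = -0.57 (permutation p = 0.0870, adjusted 0.157) and rho = -0.58 (permutation p = 0.0876, adjusted 0.197). The r of Ccng1, Mdm2, Trp53inp1 and Sesn2 lay between -0.49 and -0.05.

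With each group's mean removed, r was 0.62 for Bax (permutation p = 0.0560, adjusted 0.303), 0.42 for Cdkn1a, 0.52 for Zmat3 and -0.60 for Bbc3. With the means removed, r of Mdm2 was -0.42, against -0.38 with them. No r was computed within a group of 5 libraries. Without rmPRL 2 and saline 2, the libraries farthest from the median of Trp53, r was 0.58 for Bax (permutation p = 0.131, adjusted 0.392), 0.49 for Cdkn1a, 0.68 for Zmat3 and -0.64 for Bbc3. Without rmPRL 1 alone, r of Bax was 0.93 (permutation p = 0.000470, adjusted 0.00423). For Cdkn1a, r was 0.37 without saline 2 (permutation p = 0.324, adjusted 0.417) and 0.82 without saline 4 and rmPRL 2 (permutation p = 0.0119, adjusted 0.0754). The relation of Bax to Trp53 thus passed or missed the threshold with a single library.

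**Figure D4:**
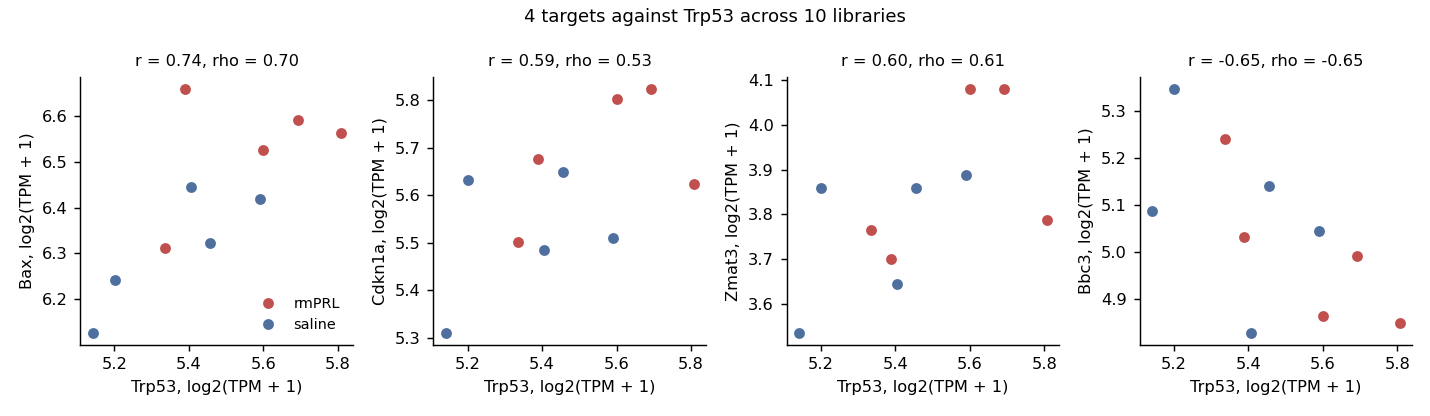
Level of Bax, Cdkn1a, Zmat3 and Bbc3 (vertical axes) against Trp53 (horizontal axis), both in log2(TPM + 1), with rmPRL libraries in red and saline libraries in blue. These 4 targets had the largest r in size of the 9, at 0.74, 0.59, 0.60 and -0.65, and none passed after adjustment.

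Other known p53 targets gave the same count of calls. Of 36 on the list, 34 were tested and 0 passed over all genes (limma). Means were higher in rmPRL for 13 and lower for 21. Their median log2 difference was -0.03, equal to that of all tested genes, and 6 of 34 (17.6%) had an unadjusted p under 0.05, against 16.0% of all tested genes. Of these 6 genes, 4 were higher and 2 were lower in rmPRL, and of all tested genes 6.14% were higher and 9.91% lower at that threshold. The smallest p belonged to Ei24, a p53-induced protein of the endoplasmic reticulum, at 72.6, 75.4, 71.5, 74.0 and 77.3 TPM in rmPRL and 62.8, 59.5, 62.4, 64.3 and 65.7 TPM in saline libraries 1 to 5. For Ei24 every rmPRL library exceeded every saline library, and the log2 difference was 0.23 (SE 0.045, limma adjusted p = 0.119). Ei24 was the 1 gene of 34 (2.94%) whose groups did not overlap, against 3.07% of all tested genes. Aen, a nuclease that promotes cell death, was at 31.5 ± 5.81 TPM in rmPRL and 23.7 ± 2.33 TPM in saline (SD, n = 5 each; limma log2 difference 0.38, adjusted p = 0.232). In rmPRL 3 Aen was at 21.4 TPM, below the other rmPRL libraries at 32.8 to 36.3 TPM. The most abundant target on the list, Rps27l, a ribosomal protein paralog whose reads may be shared with its near copies, was at 324 ± 25.9 TPM in rmPRL and 326 ± 22.0 TPM in saline (SD, n = 5 each). Its log2 difference of -0.01 changed sign under other scalings.

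Of 22 regulators of p53, all tested, 0 passed (limma), 7 means were higher and 15 lower, with a median log2 difference of -0.04 and 5 (22.7%) at an unadjusted p under 0.05, against 16.0% of all tested genes. Of these 5 genes, 1 was higher and 4 were lower in rmPRL. Ep300, an acetyltransferase that acts as a p53 coactivator, was at 24.0, 20.2, 25.7, 22.4 and 27.6 TPM in rmPRL and 30.5, 31.8, 30.3, 34.1 and 36.8 TPM in saline libraries 1 to 5. For Ep300 every rmPRL library was below every saline library, and the log2 difference was -0.44 (SE 0.087, limma adjusted p = 0.119). Ep300 was the 1 gene of 22 (4.55%) whose groups did not overlap, against 3.07% of all tested genes. Atm, the kinase that signals DNA breaks to p53, was at 6.50 ± 1.07 TPM in rmPRL and 8.95 ± 1.67 TPM in saline (SD, n = 5 each; limma log2 difference -0.40, adjusted p = 0.221). Mdm4, the partner of Mdm2 that blocks p53's activation domain, was at 63.6 ± 8.99 TPM in rmPRL and 70.3 ± 12.9 TPM in saline (SD, n = 5 each, limma adjusted p = 0.617). Rpl11, a ribosomal protein that can bind Mdm2, was the most abundant at 1005 ± 37.8 TPM in rmPRL and 1039 ± 46.6 TPM in saline (SD, n = 5 each, limma adjusted p = 0.640).

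The related factors differed in level. Trp73, which is required for multiciliated cells, was at 54.6 ± 6.53 TPM in rmPRL and 61.7 ± 12.0 TPM in saline (SD, n = 5 each; limma log2 difference -0.16, adjusted p = 0.553). Trp63, known from basal cells of stratified epithelia, was at 1.73 ± 0.280 TPM in rmPRL and 1.41 ± 0.0999 TPM in saline (SD, n = 5 each; limma log2 difference 0.18, adjusted p = 0.376). Trp73 therefore stood near the level of Trp53 and Trp63 far below it.

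The list of p21 partners held kinases, cyclins, Pcna and the related inhibitors Cdkn1b and Cdkn1c. Of its 10 tested genes 0 passed, with a median log2 difference of 0.07, and 1 of the 11 on the list, Ccne1, was too low to test. Cdk4, which pairs with D-type cyclins, was at 343 ± 26.0 TPM in rmPRL and 310.5 ± 25.9 TPM in saline, and Ccnd2, one of those cyclins, at 21.7 ± 4.43 TPM in rmPRL and 17.5 ± 4.36 TPM in saline (SD, n = 5 each, limma adjusted p = 0.342 and 0.371). Of 14 tested cell cycle genes that p53 is known to repress through p21, 0 passed (limma), 6 means were higher and 8 lower, with a median of -0.08. For each of these 14 genes, rmPRL 2, the diestrus library, was the highest of all 10 libraries. The part of that library in the directions and the median was not tested. Cdk1, the mitotic kinase, was at 10.0, 34.9, 14.8, 9.15 and 14.7 TPM in rmPRL and between 12.1 and 23.9 TPM (median 20.6) in saline, highest in the diestrus library. Cdc20, an activator of the anaphase-promoting complex, had a log2 difference of -0.42 and E2f1, a driver of S phase entry, of 0.21 (limma adjusted p = 0.437 and 0.477). Without rmPRL 2, the diestrus library, the log2 difference was -0.63 for Cdc20 and 0.10 for E2f1, and without rmPRL 4 that of Cdc20 was -0.27.

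Around Bax and Bbc3, 0 of 15 tested BCL2 family genes passed (limma), with 9 higher and 6 lower means and a median of 0.03. Bik, which like Bbc3 neutralises survival proteins, was at 5.40 ± 0.724 TPM in rmPRL and 6.58 ± 1.18 TPM in saline, and Bad, another such protein, at 110.0 ± 7.26 TPM in rmPRL and 101 ± 7.04 TPM in saline (SD, n = 5 each, limma adjusted p = 0.353 and 0.371). Bok, a relative of Bax, was the most abundant of the list, at 173 ± 6.44 TPM in rmPRL and 179.7 ± 15.9 TPM in saline (SD, n = 5 each, limma adjusted p = 0.719). Of the 6 sestrin partners, Sesn3, the remaining sestrin, was at 26.0 ± 5.36 TPM in rmPRL and 30.6 ± 5.33 TPM in saline, and the GATOR2 subunits Seh1l and Sec13 had log2 differences of 0.16 and 0.20 (limma adjusted p = 0.431, 0.248 and 0.279). None of the 6 passed, and 2 (33.3%), Seh1l and Sec13, had an unadjusted p under 0.05, against 16.0% of all tested genes. An unadjusted p under 0.05 was found for 0 of 10 tested p21 partners, 0 of 14 cell cycle genes and 0 of 15 BCL2 family genes. It was also found for 0 of the 2 related factors Trp63 and Trp73.

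**Figure D5:**
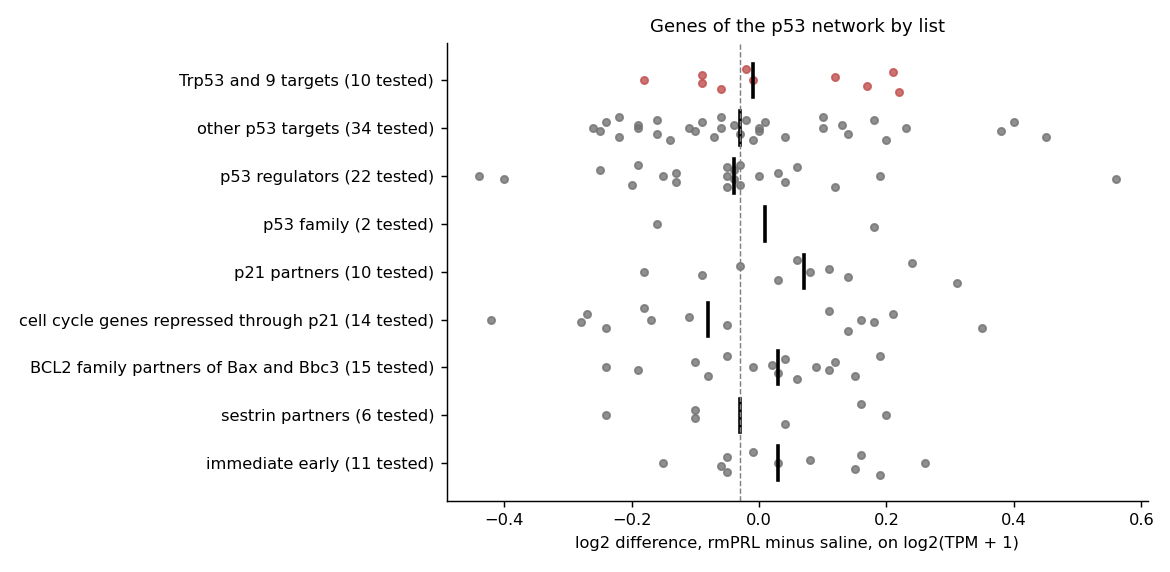
Log2 differences, rmPRL minus saline, on log2(TPM + 1), of every tested gene on 9 lists (points, red for Trp53 and its 9 targets, vertical scatter for legibility), with the median of each list (black bar) and of all tested genes (dashed line, -0.03). The list medians lie between -0.08 and 0.07, and none of the genes passed the threshold.

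Immediate early genes, which respond to tissue handling, had a median log2 difference of 0.03, and 0 of 11 tested genes passed (limma). Of these 11 genes, 0 had an unadjusted p under 0.05. Ier2 was at 21.3 ± 1.56 TPM in rmPRL and 19.1 ± 1.71 TPM in saline, Jun at 49.2 ± 4.82 and 54.9 ± 5.88 TPM in rmPRL and saline, and Ier3 at 195 ± 21.2 and 193 ± 40.2 TPM in rmPRL and saline (SD, n = 5 each). Sums of other cell type markers were compared with two-sided exact permutation tests over 12 lists, and none passed after adjustment. The smallest p was for T and NK cell genes, 7 of 7 with higher means, at sums of 2.71 to 4.49 TPM in rmPRL and 1.76 to 2.57 TPM in saline (exact permutation p = 0.00794, adjusted 0.0953), with all 7 genes under 1 TPM on average and none at 0 in every library. Of 7 macrophage genes, all had higher means, with sums of 147 to 215 TPM in rmPRL and 106 to 194 TPM in saline (exact permutation p = 0.0635, adjusted 0.367), and all 8 fibroblast and matrix genes had higher means, with sums of 909.5 to 2021 TPM in rmPRL and 561 to 1401 TPM in saline (exact permutation p = 0.127, adjusted 0.367). Means were also higher in rmPRL for 5 of 5 smooth muscle, 6 of 6 endothelial, 5 of 5 adipocyte and 4 of 5 erythroid genes. They were higher for 2 of 4 mesothelial, 3 of 8 luteal and theca and 2 of 6 granulosa genes, and for 43.5% of all tested genes. Genes of a list share a cell type and are not independent. Of the epithelial genes, 1 of 7 on the secretory list and 1 of 9 on the multiciliated list had a higher mean in rmPRL. The log2 difference of the sums was -0.37 for the secretory list (exact permutation p = 0.103, adjusted 0.367) and -0.04 for the multiciliated list (exact permutation p = 0.786, adjusted 0.857). Adjusted p ran from 0.367 to 0.976 for the lists other than T and NK cell genes, and no list had a marker at 0 in every library. The part of these cell types in the values of Trp53, Bax and Cdkn1a was not tested.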

How the data were processed

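RNA of 10 pooled infundibulum samples, 5 per group, was isolated with Trizol and an RNeasy column and prepared with the TruSeq Stranded mRNA kit, per the labels' protocols. Per the series' design text, paired reads of 100 bases were checked with FastQC and trimmed with Trimmomatic (quality threshold 15, minimum length 20 bases). They were then mapped to mm10 (HISAT2, SAMtools), counted with featureCounts and compared with DESeq2 by the authors. The deposited values are TPM named as scaled. Their calculation, the annotation, tool versions and strand setting are not given in the sources used here. Since depth cannot be recovered from TPM, count models were not used.

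Members were set by symbol and not by their measured values, but members, lists and alternatives were all chosen with earlier results of these data known. Coordinates are those of GENCODE vM21 on GRCm38, whose versioned identifiers matched 53525 of 54256 rows. The 16131 genes that reached 1 TPM in 5 or more libraries were fitted as log2(TPM + 1) with limma 3.58.1 in R 4.3.3 (lmFit, eBayes with trend and robust estimation, group as the only term), with Benjamini-Hochberg adjustment and a threshold of 0.05. This scale understates changes of low genes, and errors beside log2 differences are standard errors of the fit. Single values and ratios were compared with two-sided exact permutation tests over 252 assignments, whose smallest p is 0.00794. The fit was tested on simulated data. All members are named, with, from each other list without a passing gene, the 2 smallest p and the highest mean, and always Trp63, Trp73, Mdm4 and Sesn3. The member with the closest relation to Trp53 and the plotted targets were chosen after their values were seen.

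Alternatives were pseudocounts of 0.1 and 0.5, no filter and one of 5 TPM, median-of-ratios scaling, quantile normalization, rescaling that leaves out mitochondrial genes and the 50 most abundant ones, limma without trend and robust estimation, array weights, the replicate number as a block, and leaving out single libraries or saline 4 with rmPRL 2. Figures were drawn with matplotlib 3.10.9.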

Additional observations from a re-analysis of the deposited data

Results flagged for a closer look

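Dixon's test for a library far from the other 4 of its group was applied to 66 groups of 5 values, and chance flags about 1 in 20. It flagged 5. Trp53inp1 was at 62.6 TPM in saline 1, against 85.6 to 94.9 TPM in the other saline libraries. In rmPRL 3, Aen was at 21.4 TPM, against 32.8 to 36.3 TPM in the other rmPRL libraries, and Rps27l at 278 TPM, against 331 to 342 TPM. In rmPRL 2, the diestrus library, Cdk1 was at 34.9 TPM, against 9.15 to 14.8 TPM in the other rmPRL libraries, and Ccnd2 at 29.3 TPM, against 17.8 to 20.8 TPM. The same library had the highest luteal and theca marker sum, and the part of stage or of ovarian RNA in these values was not tested.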

How the results depend on the processing

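No member passed under any of the 21 alternative fits run (limma, 0 of 10 each, or 0 of 9 with the filter of 5 TPM, which left out Sesn2). Of 219 alternative values for the members, 206 kept their direction and side of the threshold, and 12 changed sign. Mdm2 was at 0.02 with median-of-ratios scaling, 0.01 with quantile normalization, 0.01 with the rescaling and 0.01 without saline 4 and rmPRL 2, and from -0.06 to 0.03 with single libraries left out. Sesn2 was at 0.00456 with median-of-ratios scaling, at 0.00223 with the rescaling and at 0.02 without that pair, and from -0.10 to 0.03 with single libraries left out. The remaining change was the unadjusted exact p of Bax. Log2 differences ran from 0.15 to 0.26 for Trp53, 0.12 to 0.21 for Cdkn1a and 0.17 to 0.27 for Bax over all alternatives (limma adjusted p for Bax from 0.0783 to 0.458). With single libraries left out, Zmat3 (0.12) ran from 0.07, without rmPRL 4 or saline 2, to 0.17. Bbc3 (-0.09) ran from -0.16, without rmPRL 3 or saline 1, to -0.03, without saline 3. Trp53inp1 (-0.09) ran from -0.20, without rmPRL 3, to -0.03, without rmPRL 1, and was at -0.00247 without saline 4 and rmPRL 2. Ccng1 (-0.06) ran from -0.10, without rmPRL 1, to -0.02, without rmPRL 2, and Sesn1 (-0.18) from -0.26, without rmPRL 1, to -0.12, without rmPRL 5.

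The count over all genes, 4, was 270 with array weights, 2 with the replicate block and 0 with no filter, where 3276 genes had an unadjusted p under 0.05 (limma). It ran from 1 to 18 with single libraries left out: 18 without rmPRL 1, 7 without rmPRL 3, 2 without rmPRL 4, and 1 without rmPRL 2, rmPRL 5, saline 3 or saline 5. On the other lists 2 genes, Ei24 and Ep300, passed with array weights (limma adjusted p = 0.0409 and 0.0393). Rps27l was at 0.01 under each of the 3 scalings and without saline 4 and rmPRL 2, at 0.02 with array weights and from -0.04 to 0.04 with single libraries left out, Rpl11 at 0.01 with quantile normalization, and Ier3 from -0.08 to 0.13 with single libraries left out. The relation of Bax to Trp53 ran from r = 0.62 to 0.93 with single libraries left out, and that of Sesn2 from -0.18 to 0.17, with 0.02 under median-of-ratios scaling. All alternatives for named genes of the other lists, the passes of Ei24 and Ep300 with array weights among them, were chosen after seeing the data, as were leaving out single libraries and scaling for the relations, and leaving out libraries for the ratios. The causes were not tested.

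Same-numbered libraries did not deviate together (correlations from -0.248 to 0.108, 0 of 5 rmPRL libraries closest to their own number). No pairing by number was thus visible, though low correlations cannot show that the numbers share no processing step. The replicate block gave 0 members. Depth is not recorded in TPM, so the counting error of low genes such as Sesn2 is unknown.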
